A study of Mus musculus with 11 samples.

Results

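Small nucleolar RNAs (snoRNAs) are short RNAs that guide methylation and pseudouridylation of ribosomal and spliceosomal RNA, and in mammals nearly all are cut out of the introns of a longer host transcript. Some hosts code for proteins, often of the translation machinery, and others are spliced RNAs whose exons have no known protein product. The set described here holds 10 mouse genes of the second kind, Snhg1, Snhg3, Snhg6, Snhg8, Snhg11, Snhg12, Snhg14, Snhg17, Snhg20 and Gas5. They were chosen by symbol and matched to 10 of the 48709 gene rows of the count tables. Many spliced host RNAs of this kind start with a run of pyrimidines, as ribosomal protein mRNAs do, and are degraded by nonsense-mediated decay when ribosomes read their short open frames, so their level depends on translation and decay as well as on transcription. The set matched its name except for Snhg11, which the GENCODE annotation lists as protein coding and which keeps its symbol here.

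The cells were primary mouse hippocampal neurons, nerve cells taken from the hippocampus, the brain region best known for memory, and kept in culture for 10 days at 20% oxygen. In the hypoxia group (5 libraries) the cultures were then moved to 1% oxygen for 4 h, and in the control group (6 libraries) cells of the same isolation stayed at 20% oxygen. No genetic change or drug is listed for either group, and the labels name no strain, age or sex. RNA with poly(A) tails was sequenced as single 50 bp reads, with total gene counts of 16619493 to 31917157 per library. Nothing in the labels says that the libraries of a group came from separate cultures, so p-values measure the spread between these libraries, which may be technical. Neuronal markers were abundant in both groups, with a summed level over 8 genes of 7615 to 8299 CPM (counts per 1000000 counts of the library) in control and 7840 to 8324 CPM in hypoxia. Astrocyte markers were also present (1460 to 1666 CPM summed over 6 genes in control and 1442 to 1578 CPM in hypoxia), so the cultures did not hold neurons alone, and fewer cells of a type and less RNA per cell cannot be told apart.

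Of the 10 host genes, 9 passed the filter on low counts. In hypoxia Snhg1 and Snhg12 rose, Snhg14, Snhg11 and Snhg20 fell, and the other 4 tested host genes (Gas5, Snhg17, Snhg6 and Snhg8) did not pass the test. The share of all 16235 tested genes that passed (edgeR quasi-likelihood test, Benjamini-Hochberg adjusted p under 0.05) was 22.9%, of which 10.1% of the genes tested were higher and 12.8% lower. The median log2 fold change of the 9 tested host genes was -0.001, against -0.017 over all genes tested. The 10 genes therefore did not move as a block, and their differences are described gene by gene.

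The first sequences shown are of the small RNAs themselves, because the hosted snoRNAs are what the host genes have in common. Box C/D snoRNAs, which guide methylation, carry a C box (TGATGA) near the 5′ end and a D box (CTGA) near the 3′ end, and box H/ACA snoRNAs, which guide pseudouridylation, end in ACA and 3 more bases. The sequences are GENCODE transcripts of the GRCm38 (mm10) build, 5′ to 3′, and capitals mark the first TGATGA and the last CTGA, or the ACA near the end. Snord47 lies in Gas5 (chromosome 1, 161038082 to 161038158, plus strand), Snord99 in Snhg12 (chromosome 4, 132310691 to 132310764, plus strand), Snord87 in an intron of Snhg6 (chromosome 1, 9942463 to 9942549, minus strand) and Snora24 in Snhg8 (chromosome 3, 123507937 to 123508066, minus strand).
Snord47 (Gas5): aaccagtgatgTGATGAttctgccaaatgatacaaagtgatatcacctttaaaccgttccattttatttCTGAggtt
Snord99 (Snhg12): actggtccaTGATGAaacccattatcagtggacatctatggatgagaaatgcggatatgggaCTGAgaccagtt
Snord87 (Snhg6): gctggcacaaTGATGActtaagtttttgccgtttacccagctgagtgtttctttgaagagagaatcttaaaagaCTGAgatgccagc
Snora24 (Snhg8): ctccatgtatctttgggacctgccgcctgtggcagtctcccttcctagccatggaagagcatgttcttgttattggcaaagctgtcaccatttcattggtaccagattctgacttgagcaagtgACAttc

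Snhg14 stood apart from the other hosts in its snoRNA load. The annotation places 208 snoRNA rows inside it, against 33 in the other 9 host genes together, and the 208 rows hold only 85 distinct sequences, since 147 rows share their exact sequence with at least 1 other row. These are the Snord116 and Snord115 arrays of the imprinted region that is lost in Prader-Willi syndrome. The sequence with most copies (33 rows) and the next (30 rows, of which 14 carry a Snord116 name) are shown with Gm24966, the Snhg14 snoRNA row with most counts (chromosome 7, 59344073 to 59344151, minus strand). Gm24966 differs from the 33-copy sequence at 10 of 79 bases, and it reads tgataa at base 8, where the 33-copy sequence has TGATGA. Its first TGATGA starts at base 37, where the 33-copy sequence has a further TGATGA. The first capitals in Gm24966 therefore do not mark a C box near the 5′ end.
Snhg14 snoRNA, 33 copies: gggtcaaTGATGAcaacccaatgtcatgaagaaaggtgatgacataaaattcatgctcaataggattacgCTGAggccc
Snhg14 snoRNA, 30 copies: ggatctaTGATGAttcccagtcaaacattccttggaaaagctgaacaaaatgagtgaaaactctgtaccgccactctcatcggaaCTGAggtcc
Gm24966: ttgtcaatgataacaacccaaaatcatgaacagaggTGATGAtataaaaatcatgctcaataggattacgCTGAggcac

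The count tables reported on the hosts and hardly at all on the snoRNAs they carry, which lack a poly(A) tail. All 241 snoRNA rows inside the 10 host genes held 590 counts over the 11 libraries, while the hosts themselves held 166306. The 32 snoRNA rows that touch an annotated host exon held 1 count together, and the 209 rows that lie only in introns held 589. Most of it came from 3 rows, Gm24966 in Snhg14 with 297 counts, Gm25129 in Snhg11 with 163 and Snord87 in Snhg6 with 47. Gm24966 had 23 to 43 counts per library in control and 14 to 27 in hypoxia, and its log2 fold change of -0.47 (SE 0.24) did not pass the test (edgeR adjusted p = 0.173). Gm25129 had 9 to 20 counts per library in control and 8 to 24 in hypoxia, with a log2 fold change of 0.00 (SE 0.30, edgeR adjusted p = 0.995). The data therefore do not show whether the mature snoRNAs changed with their hosts. A read that fits several identical copies may also have been left uncounted. The same holds for a read that fits both a snoRNA row and the host exon over it. Neither was tested.

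Snhg14 had the smallest p among the 10 host genes. It is a very long imprinted transcript made from the paternal chromosome, downstream of Snrpn, and in neurons its far end runs antisense through Ube3a and is known to silence the paternal copy of that ubiquitin ligase gene. The annotated row spans chromosome 7, 59307924 to 59975759 on the minus strand. Its level in the 6 control libraries ran from 141 CPM, over a median of 147 CPM, to 162 CPM. The 5 hypoxia libraries had 84.7, 86.9, 96.9, 104.5 and 72.3 CPM. Every hypoxia library was below every control library, and the highest of them stood well under the lowest control. Snhg14 fell from 149 ± 9.3 CPM (SD, n = 6) to 89.1 ± 12.3 CPM (SD, n = 5), a log2 fold change of -0.74 (SE 0.07, 95% interval -0.90 to -0.59, edgeR adjusted p = 3.93e-06). It ranked 97th by p among the genes tested, and 1.42% of them had a log2 fold change as low or lower.

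Along the Snhg14 locus, Gm38393 and Snhg14 were lower in hypoxia, while Snrpn, which starts before both on the same strand, did not pass the test. Snrpn, which codes for a spliceosomal protein and shares its direction of transcription with Snhg14, had 312 ± 10.9 CPM in control (SD, n = 6) and 327 ± 3.4 CPM in hypoxia (SD, n = 5). Its log2 fold change was 0.07 (SE 0.03, edgeR adjusted p = 0.145). Gm38393, a row that starts 135 kb after the start of Snrpn, overlaps the end of Snrpn and reaches into the first bases of Snhg14, fell from 37.7 ± 3.2 CPM to 19.1 ± 2.41 CPM with no overlap between groups (log2 fold change -0.98, SE 0.08, edgeR adjusted p = 2.96e-07). Inside Snhg14, the unconfirmed transcript Gm44831 had 1.56 ± 0.69 CPM in control and 0.837 ± 0.46 CPM in hypoxia, with a log2 fold change of -0.86 that did not pass the test (SE 0.33, edgeR adjusted p = 0.0744). Smaller differences inside Snhg14, which did not pass, were those of A230103L15Rik (-0.37, SE 0.22, edgeR adjusted p = 0.268) and Gm44829 (-0.27, SE 0.24, edgeR adjusted p = 0.476). Beyond its end on the same strand, 9330162G02Rik (-0.31, SE 0.20, edgeR adjusted p = 0.282) and Gm44559 (0.17, SE 0.32, edgeR adjusted p = 0.756) did not pass either. The same held there for Gm44562 (-0.57, SE 0.34, edgeR adjusted p = 0.262) and Gm44560 (-0.41, SE 0.38, edgeR adjusted p = 0.4875). These rows were low, at 1.52 CPM for Gm44562 and 0.81 CPM for Gm44560 in control. Ube3a, at the far end and on the other strand, had 181 ± 11.7 CPM and 160 ± 20.3 CPM, a log2 fold change of -0.18 that did not pass (SE 0.07, edgeR adjusted p = 0.0822).

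**Figure D1:**
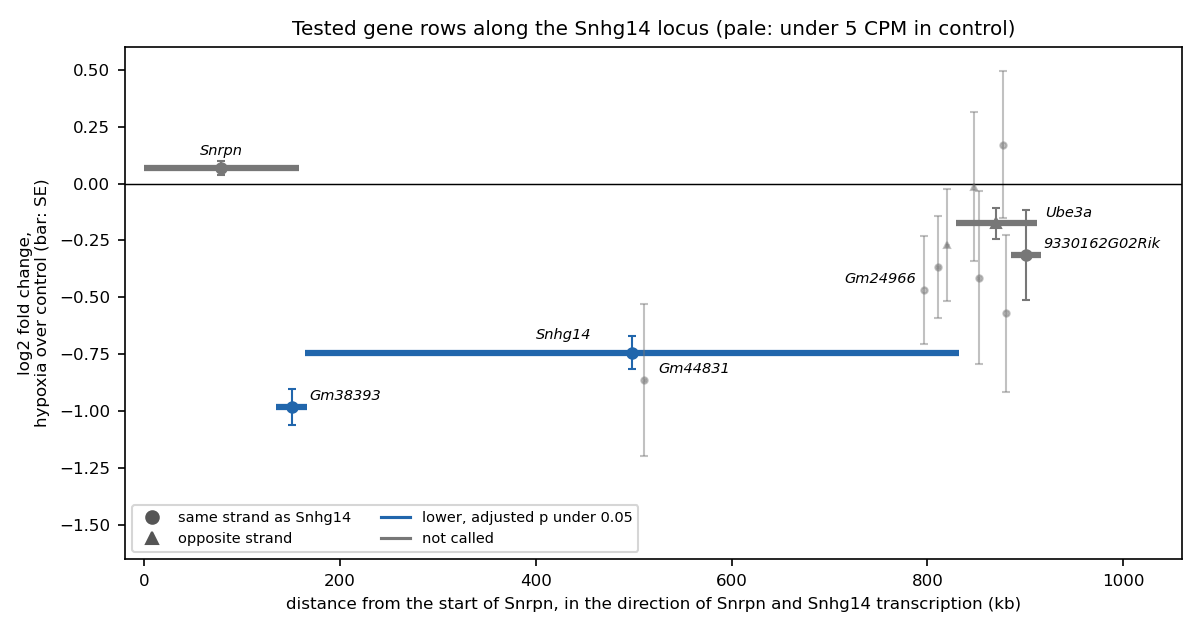
Log2 fold change (hypoxia over control, vertical axis, bars are SE) of each tested gene row along the Snhg14 locus against distance in kb from the start of Snrpn. Horizontal bars show the annotated span of each row, blue rows passed the test and grey rows did not; Gm38393 (-0.98) and Snhg14 (-0.74) are the blue rows, and Snrpn lies at 0.07.

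The change of Snhg14 relative to these genes was tested on the log2 ratio within each library, by exact permutation over the 462 ways to split the libraries (2-sided). The same was done for all 19 pairs of a tested host gene and a tested annotated neighbour, with p adjusted over the 19, and 10 pairs passed. The changes of the host genes were known when these ratios were added, so a ratio is no evidence independent of them. The log2 ratio of Snhg14 to Snrpn was -1.07 ± 0.11 in control (SD, n = 6) and -1.89 ± 0.20 in hypoxia (SD, n = 5), a difference of -0.82 (exact permutation p = 0.00216, the smallest the design allows, adjusted p = 0.00588). The ratio to Ube3a fell by 0.57 and that to Atp10a, a lipid-transporting ATPase gene beyond it, fell by 0.71 on the log2 scale, both with the same exact permutation p values. The ratio to Gm38393 differed by 0.24 with overlapping groups and did not pass after adjustment (exact permutation p = 0.0411, adjusted p = 0.0651). The libraries do not keep strand as far as the sources used here say, and 6.91% of the exon bases of Snhg14 lie over exons of Ube3a on the other strand, so reads there cannot be told apart.

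Snhg11 was the most abundant of the 10 host genes and also fell. It lies on chromosome 2, 158375638 to 158386145 on the plus strand. Control libraries ran from 277 CPM over a median of 326 CPM to 400.0 CPM. The hypoxia libraries had 294, 298, 265, 248 and 186 CPM. The 3 lowest hypoxia libraries were below every control library, and the other two lay inside the control range. Its mean went from 338 ± 43.6 CPM (SD, n = 6) to 258 ± 45.1 CPM (SD, n = 5), a log2 fold change of -0.39 (SE 0.11, 95% interval -0.61 to -0.16, edgeR adjusted p = 0.0144). With robust estimation of the spread the adjusted p was 0.0505, over the threshold, so the call rests on that setting.

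Snhg17, the next host gene on the same chromosome and on the opposite strand (158353700 to 158361580), did not pass the test. It had 19.2 ± 2.18 CPM in control (SD, n = 6) and 19.9 ± 1.19 CPM in hypoxia (SD, n = 5), a log2 fold change of 0.06 (SE 0.07, 95% interval -0.10 to 0.21, edgeR adjusted p = 0.638). The log2 ratio of Snhg11 to Snhg17 fell from 4.13 ± 0.14 to 3.68 ± 0.20, with no overlap between the groups (exact permutation p = 0.00216, adjusted p = 0.00588 over the 19 pairs). On the other side of Snhg11, Ralgapb, which codes for a subunit of a Ral GTPase-activating complex, had a log2 fold change of 0.06 (SE 0.04), and the log2 ratio of Snhg11 to Ralgapb fell by 0.46 (exact permutation p = 0.00433, adjusted p = 0.0103). The ratio of Snhg11 to Lbp, a lipopolysaccharide-binding protein gene at a low level, differed by -0.12 and did not pass (exact permutation p = 0.528).

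Snhg20, the host of a small Cajal body RNA, fell from a low level. Control libraries ran from 5.32 CPM over a median of 6.88 CPM to 7.54 CPM, and the hypoxia libraries had 6.14, 4.44, 4.39, 5.42 and 4.90 CPM. The groups overlapped: hypoxia replicates 1 and 4 were above the lowest control. The means were 6.64 ± 0.96 CPM (SD, n = 6) and 5.06 ± 0.73 CPM (SD, n = 5), with a log2 fold change of -0.41 (SE 0.11, 95% interval -0.65 to -0.17, edgeR adjusted p = 0.0149). These values rest on 89 to 233 counts per library. Its neighbour Sec14l1, which codes for a SEC14-like lipid-binding protein, rose (log2 fold change 0.18, SE 0.04, edgeR adjusted p = 0.00508), and Mgat5b, a glycosyltransferase gene on the other side, had a log2 fold change of 0.02 that did not pass (SE 0.08, edgeR adjusted p = 0.911). The log2 ratio of Snhg20 to Sec14l1 fell by 0.58 and that to Mgat5b by 0.42 (both exact permutation p = 0.00216, adjusted p = 0.00588).

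**Figure D2:**
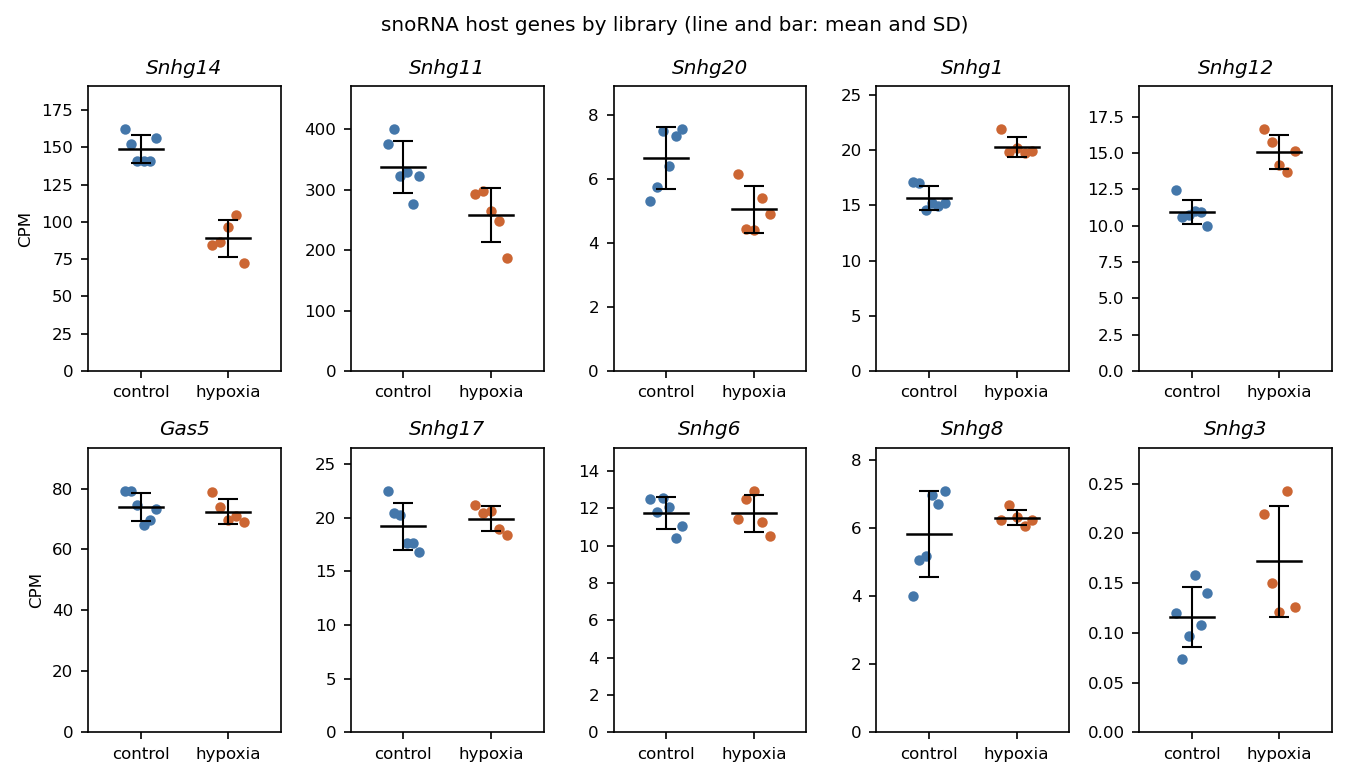
Level in CPM (vertical axis, from 0) of each of the 10 host genes in every library, control (blue, n = 6) and hypoxia (orange, n = 5), with the mean and SD in black. Snhg14, Snhg1 and Snhg12 show no overlap between groups among the 9 tested genes, and the hypoxia libraries of Snhg14 sit between 72.3 and 104.5 CPM, below all controls.

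Snhg12 had the largest rise of the host genes tested. It lies on chromosome 4, 132308623 to 132311024 on the plus strand and carries 4 box H/ACA rows and Snord99. Control libraries ran from 9.99 CPM over a median of 10.9 CPM to 12.5 CPM. The hypoxia libraries had 16.6, 15.7, 14.2, 13.7 and 15.1 CPM, all above the highest control. The mean rose from 10.96 ± 0.84 CPM (SD, n = 6) to 15.1 ± 1.19 CPM (SD, n = 5), a log2 fold change of 0.46 (SE 0.07, 95% interval 0.32 to 0.61, edgeR adjusted p = 0.000135). Trnau1ap, which lies next to it and codes for a protein of the selenocysteine tRNA pathway, had a log2 fold change of -0.02 (SE 0.07), and the log2 ratio of Snhg12 to Trnau1ap rose by 0.48 (exact permutation p = 0.00866, adjusted p = 0.0183).

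Snhg1, which carries 8 snoRNA rows, among them Snord22, rose by a similar amount. It lies on chromosome 19, 8723475 to 8726443 on the plus strand. The control libraries ran from 14.6 CPM over a median of 15.2 CPM to 17.1 CPM, and the hypoxia libraries had 21.9, 19.9, 20.2, 19.7 and 19.9 CPM. All 5 hypoxia libraries were above the highest control. The means were 15.7 ± 1.09 CPM (SD, n = 6) and 20.3 ± 0.89 CPM (SD, n = 5), with a log2 fold change of 0.38 (SE 0.06, 95% interval 0.26 to 0.50, edgeR adjusted p = 0.000172). Slc3a2, which starts close by on the other strand and codes for the heavy chain of amino acid transporters, rose with it (log2 fold change 0.45, SE 0.05, edgeR adjusted p = 8.19e-06). The log2 ratio of Snhg1 to Slc3a2 was -3.40 ± 0.21 in control and -3.48 ± 0.05 in hypoxia, and the difference did not pass (exact permutation p = 0.459). Wdr74, a ribosome assembly gene on the other side, was at a low level, and the ratio of Snhg1 to it did not pass either (difference 0.44, exact permutation p = 0.255). Over all tested genes, groups did not overlap for 6.72% in the direction of a rise and 7.26% in the direction of a fall (14% together), against 2 and 1 of the 9 host genes tested.

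**Figure D3:**
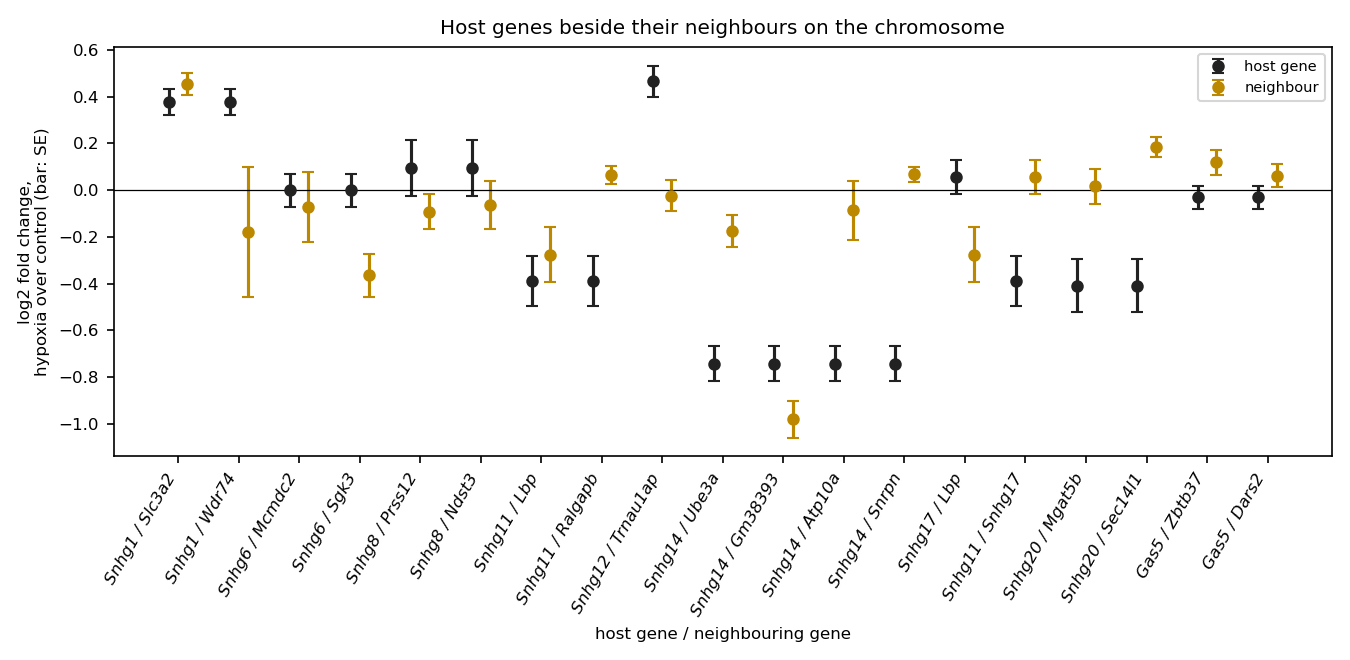
Log2 fold change (hypoxia over control, bars are SE) of host genes (black) and a neighbouring gene on the chromosome (ochre), for the 19 pairs tested. Snhg1 (0.38) and Slc3a2 (0.45) both lie above 0, Snhg14 (-0.74) and Gm38393 (-0.98) both lie below it, and Snhg20 (-0.41) lies below Sec14l1 (0.18) and Mgat5b (0.02).

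Gas5, named for its accumulation in growth-arrested cells, was measured precisely and stayed within its spread. Control libraries ran from 68.0 CPM over a median of 74.0 CPM to 79.2 CPM, and the hypoxia libraries had 79.0, 73.9, 69.6, 71.0 and 68.9 CPM, all inside the control range. The log2 fold change was -0.03 (SE 0.05, edgeR adjusted p = 0.711), and its 95% interval of -0.13 to 0.07 leaves out changes of the size seen in Snhg1 or Snhg12. Zbtb37, a zinc finger gene whose annotated span overlaps Gas5, had a log2 fold change of 0.12 (SE 0.05, edgeR adjusted p = 0.123). The log2 ratio of Gas5 to Zbtb37 differed by -0.15 and did not pass after adjustment (exact permutation p = 0.0303, adjusted p = 0.0523).

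Snhg6 and Snhg8 also did not pass the test. Snhg6, the host of Snord87, had 11.7 ± 0.84 CPM in control (SD, n = 6) and 11.7 ± 0.98 CPM in hypoxia (SD, n = 5), and its log2 fold change was 0.00 (SE 0.07, 95% interval -0.15 to 0.15, edgeR adjusted p = 0.995). Its neighbour Sgk3, a protein kinase gene, fell (log2 fold change -0.36, SE 0.09, edgeR adjusted p = 0.00927), and the log2 ratio of Snhg6 to Sgk3 rose by 0.37 (exact permutation p = 0.00216, adjusted p = 0.00588). Snhg8, the host of Snora24, had 5.83 ± 1.27 CPM in control and 6.30 ± 0.22 CPM in hypoxia (log2 fold change 0.09, SE 0.12, 95% interval -0.16 to 0.35, edgeR adjusted p = 0.636). The control libraries of Snhg8 differed more among themselves than the groups did: replicates 1 to 3 had 4.00, 5.05 and 5.18 CPM and replicates 4 to 6 had 6.98, 6.70 and 7.09 CPM, with all 5 hypoxia libraries between 6.07 and 6.66 CPM. The same split ran the other way in Snhg17, with 22.5, 20.4 and 20.3 CPM in control replicates 1 to 3 and 17.6, 17.6 and 16.8 CPM in replicates 4 to 6. Gas5 was split as Snhg17 was, with 79.2, 79.2 and 74.7 CPM in control replicates 1 to 3 and 68.0, 69.8 and 73.3 CPM in replicates 4 to 6. No label describes a batch, and the part of this split in the results was not tested.

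Snhg3, the host of the Snora73 snoRNAs, could not be measured. It had 2 to 6 counts per library, 41 in all, and did not pass the filter. Of its annotated exon bases, 86.3% lie over exons of other genes, mainly Gm17300 (71.5%), its own snoRNA Snora73a (16.1%) and Rcc1 (13.7%), which overlap in part, and reads there can be lost or assigned to another row. Rcc1, which codes for a regulator of chromosome condensation, had a log2 fold change of -0.02 (SE 0.06). In the other host genes the shared part of the exons ran from 1.56% in Snhg11 to 20.9% in Snhg1. It lay mostly over their own small RNA rows, except in Snhg6 (11.1% over Mcmdc2) and Snhg14 (6.91% over Ube3a).

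**Figure D4:**
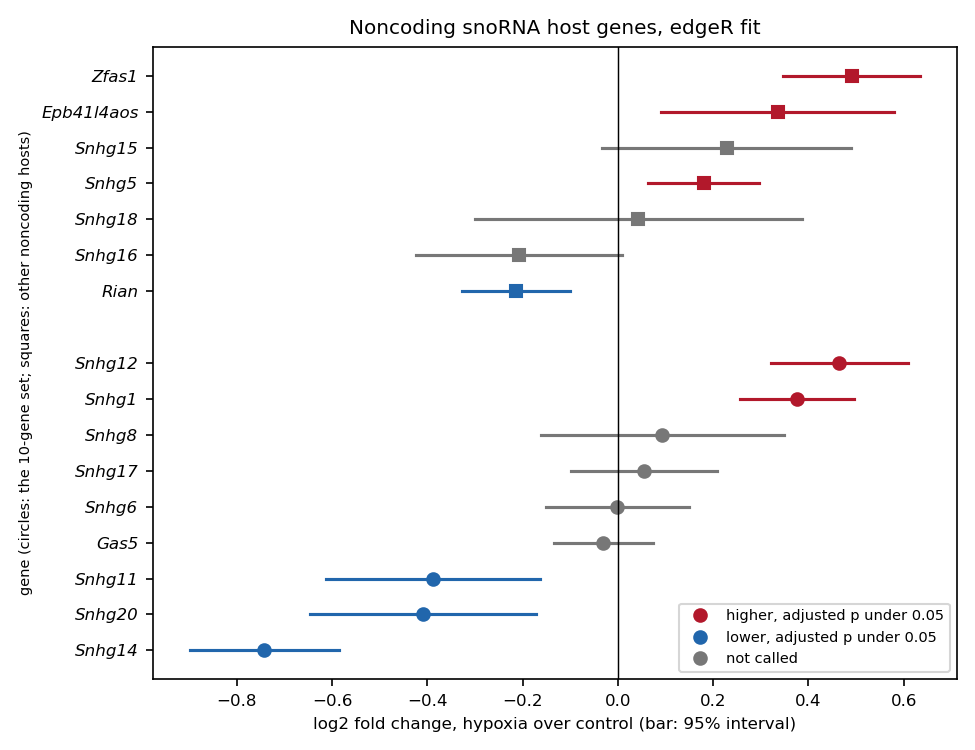
Log2 fold change (hypoxia over control, horizontal axis, bars are 95% intervals) of the 9 tested host genes (circles) and of 7 other noncoding snoRNA hosts (squares), coloured by the edgeR call. The 9 genes run from -0.74 (Snhg14) to 0.46 (Snhg12) with 4 intervals over 0, and Zfas1 is the highest of the other hosts at 0.49.

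The sequences at the start sites are shown for the host genes that passed the test and for Gas5, since host RNAs of the pyrimidine-start kind are read from there. They are RefSeq promoter sequences (GRCm38.p6) from 30 bases before to 30 after the annotated start, 5′ to 3′ on the gene's strand, and capitals mark the longest run of C and T that lies from 10 bases before to 20 after the start. RefSeq promoters were matched for 9 of the 10 host genes, with 11 starts, and Snhg6 had no entry. Gas5 has 2 entries, and the one shown is the one with the longer run.
Snhg1 (chr19:8723457-8723516, plus strand): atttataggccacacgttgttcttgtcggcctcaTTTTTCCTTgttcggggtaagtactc
Snhg12 (chr4:132308648-132308707, plus strand): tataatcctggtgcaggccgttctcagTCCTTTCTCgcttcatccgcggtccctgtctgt
Gas5 (chr1:161035136-161035195, plus strand): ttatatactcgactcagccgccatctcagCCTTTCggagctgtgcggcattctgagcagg
Snhg11 (chr2:158375683-158375742, plus strand): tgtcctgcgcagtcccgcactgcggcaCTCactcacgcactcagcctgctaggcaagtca
Snhg20 (chr11:117076753-117076812, plus strand): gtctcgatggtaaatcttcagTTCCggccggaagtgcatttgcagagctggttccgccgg
Snhg14 (chr7:60450148-60450207, minus strand): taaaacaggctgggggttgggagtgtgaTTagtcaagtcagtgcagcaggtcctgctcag

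The runs were 9 bases in both Snhg1 and Snhg12, 6 in Gas5, 4 in Snhg20, 3 in Snhg11 and 2 in Snhg14. Among all 32851 RefSeq promoters the median was 4 bases, 7.11% had a run of at least 9 and 28.7% one of at least 6. Of the host genes that did not pass the test, Snhg8 had a run of 7 (17.9% of promoters have one as long) and Snhg17 had 6 at both of its starts. Snhg3, which was not tested, had 5. Of the other noncoding hosts that passed the test, Zfas1, which rose, had a run of 4, Snhg5, which rose, one of 7, and Rian, which fell, one of 6. Epb41l4aos, which also rose, had no matched promoter entry. Of the other noncoding hosts that did not pass, Snhg15 had a run of 4, Snhg16 one of 8 and Snhg18 one of 10. The other Gas5 start had a run of 3. The runs of the hosts that rose (4 to 9 bases) and of those that fell (2 to 6 bases) overlapped. Whether run length goes with direction was not tested. This measure was chosen after the expression values were seen, and with 1 sequence per gene it is a description with no test. The Snhg14 start lies outside the annotated span of the counted row, upstream of Snrpn, so it need not be where the counted reads began. The letters ACGTG are one form of the core of the element bound by hypoxia-inducible factors. They were searched on both strands from 250 bases before to 50 after the start. ACGTG was found at 1 of the 11 starts, that of Snhg1, and at 19.6% of all promoters. The form GCGTG was not searched, so this is not a count of all such elements.

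To compare levels between host genes, CPM were divided by the kilobases of annotated exon. Exons were joined over all transcripts, so Snhg1 (2969 bases), Snhg8 (853) and Snhg12 (2402) were divided by their whole gene span. Snhg6 was divided by 1146 of 2160 bases and Snhg14 by 26093 of 667836. The order therefore depends on the annotated transcripts and may differ from that of the spliced RNAs. In control, Snhg11 was highest (39.7 CPM per kb), followed by Gas5 (19.7), Snhg6 (10.2), Snhg8 (6.84), Snhg14 (5.71), Snhg1 (5.28), Snhg12 (4.57), Snhg17 (2.72) and Snhg20 (2.38), with Snhg3 at 0.118 CPM per kb. The control ranges of Snhg8 and Snhg14, of Snhg14 and Snhg1, of Snhg1 and Snhg12, and of Snhg17 and Snhg20 overlapped, and the other neighbours in this order did not. In hypoxia Snhg14 stood at 3.41 CPM per kb, below Snhg1 (6.84) and Snhg12 (6.27), and neither its range nor that of Snhg8 (7.39) overlapped with the other.

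Around the group mean, some host genes varied together from library to library. Pearson's r of the deviations from the group mean in log2 CPM over the 11 libraries was 0.76 for Snhg17 and Gas5, 0.76 for Snhg1 and Gas5 and 0.72 for Snhg11 and Gas5, and it was -0.86 for Snhg8 and Snhg17. These values share libraries and depth and are given as a description. The split among control replicates described for Snhg8, Snhg17 and Gas5 enters these r, and its part in them was not tested. Among 11059 genes with a mean of at least 5 CPM, the genes whose log2 CPM followed Snhg14 most closely over the 11 libraries were Fat4, a large cadherin (r = 0.98), Arglu1, a splicing-related protein (r = 0.98), and Rbmx, an RNA-binding protein (r = 0.98). For Snhg12 they were Srxn1, which codes for sulfiredoxin (r = 0.98), Atp6ap1, a subunit of the proton pump of acidic organelles (r = 0.98), and the lamin-binding protein gene Mlip (r = 0.97). These r include the difference between groups.

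Of 13 other noncoding snoRNA hosts listed, 9 were matched to rows and 7 were tested. Zfas1, Snhg5 and Epb41l4aos rose, Rian fell and the other 3 did not pass, beside 10.1% higher and 12.8% lower over all genes tested. The list median was 0.18 on the log2 scale against -0.017 over all genes. With 7 genes tested, nothing particular to the list is read from these counts. Zfas1, the host of snoRNAs of the Snord12 family, rose from 15.1 to 21.2 CPM with no overlap between groups (log2 fold change 0.49, SE 0.07, edgeR adjusted p = 8.84e-05). Rian, an imprinted noncoding RNA that carries a large array of box C/D snoRNAs as Snhg14 does, fell from 674 to 581 CPM (log2 fold change -0.21, SE 0.05, edgeR adjusted p = 0.0083), also with no overlap. Groups did not overlap for 14% of all genes tested. Snhg5 had a log2 fold change of 0.18 (SE 0.05, edgeR adjusted p = 0.026).

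The counts of the next lists stand beside 10.1% higher and 12.8% lower over all genes tested, and with lists this short nothing particular to a list is read from them. Of 34 protein-coding snoRNA hosts, 6 were higher, 3 lower and 25 neither, with a median of 0.05. By p, the first were Rpl21 (log2 fold change -0.42, SE 0.07), Rabggtb (0.21, SE 0.04) and Rpl4 (0.16, SE 0.03), of which the first and last code for ribosomal proteins and Rabggtb for a Rab geranylgeranyl transferase subunit. Ribosomal protein genes have many near-identical pseudogenes, so their counts are uncertain. Of the 19 proteins that form or assemble snoRNA particles, 3 were higher and none lower, and the median was 0.01. They were Nufip1, an assembly factor of box C/D particles (log2 fold change 0.43, SE 0.05, edgeR adjusted p = 3.31e-05), Znhit3 (0.23, SE 0.06), which works with it, and the core protein Nop58 (0.12, SE 0.04). Fibrillarin (Fbl), the methyltransferase of these particles, had a log2 fold change of -0.28 that did not pass (SE 0.13, edgeR adjusted p = 0.135).

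Factors of nonsense-mediated decay, the pathway that removes many host RNAs, were higher in 6 of 16 cases and lower in none, with a median of 0.04. Among those with the smallest p were Smg6, its endonuclease (log2 fold change 0.31, SE 0.04), and Upf2, a core factor (0.34, SE 0.06). Regulators of mTORC1 and of pyrimidine-start mRNAs split into 4 higher, 4 lower and 6 neither, with a median of 0.07. Sesn2 (log2 fold change 0.94, SE 0.05), Ddit4 (1.07, SE 0.12) and Eif4ebp1 (0.61, SE 0.10) had the smallest p; the first pair inhibit mTORC1 and the third codes for a repressor of cap-dependent translation. Larp1, which binds pyrimidine-start mRNAs, had a log2 fold change of 0.07 that did not pass (SE 0.03, edgeR adjusted p = 0.143). Genes of ribosomal RNA synthesis and the nucleolus were higher in 6 of 16 cases and lower in none, with a median of 0.07; Polr1c (0.23, SE 0.05), Rrn3 (0.16, SE 0.03) and Utp14a (0.26, SE 0.06) came first by p. Of 7 tested coding genes in and around the Snhg14 imprinted region, Mkrn3 (log2 fold change -0.31, SE 0.07) and Peg12 (-0.64, SE 0.23, edgeR adjusted p = 0.0498) fell and the other 5 did not pass. The Snurf row was at 0 in every library, which does not show that its RNA was absent. Whether its reads were lost or assigned to an overlapping row was not tested.

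**Figure D5:**
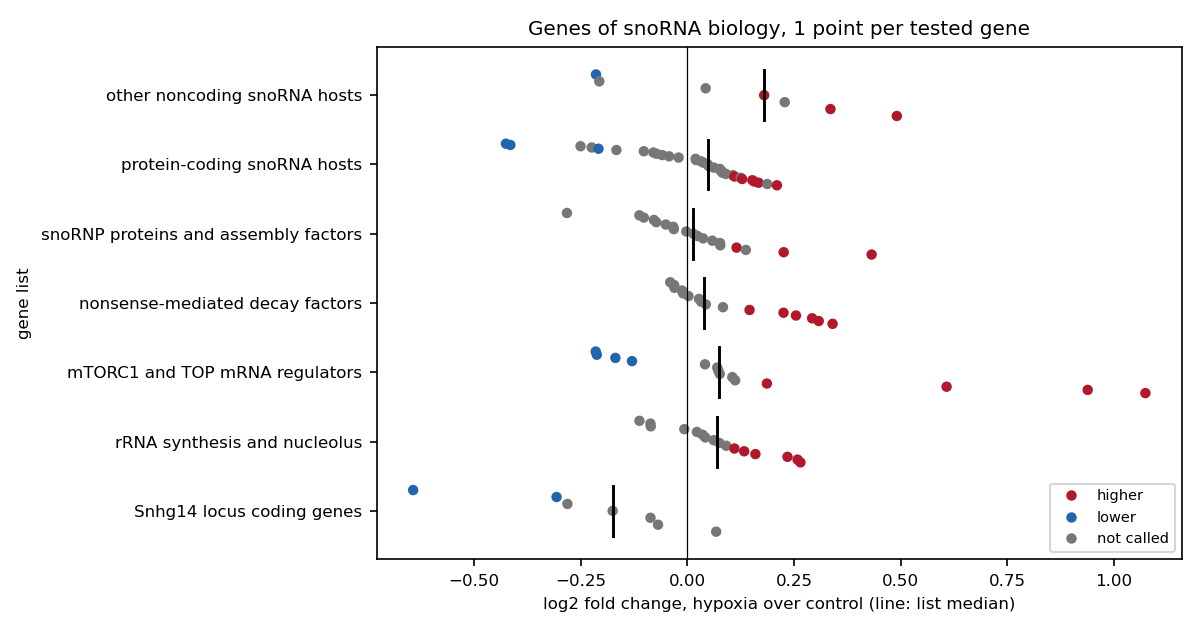
Log2 fold change (hypoxia over control, horizontal axis) of each tested gene in 7 lists of snoRNA-related genes, coloured by the edgeR call, with the list median as a black line. Medians run from -0.18 (Snhg14 locus coding genes) to 0.18 (other noncoding hosts), and Ddit4 (1.07) and Sesn2 (0.94) lie farthest to the right.

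Markers of the cell types a hippocampal culture can hold were read beside these results. Of 8 neuronal markers, Neurod6 was higher (log2 fold change 0.13, SE 0.04) and none lower. Of 5 interneuron markers none passed in either direction (Gad1, 178 CPM in control and 181 CPM in hypoxia), and the same held for 5 tested microglial markers (Aif1, 8.77 and 8.04 CPM), 5 endothelial and mural markers (Kdr, 23.7 and 20.5 CPM) and 4 fibroblast markers (Col1a2, 39.3 and 40.9 CPM). Kdr was the most abundant marker of its list, and Pecam1 (0.75 CPM) and Cdh5 (0.46 CPM) were far lower in control. Among 6 astrocyte markers Aqp4 was lower (log2 fold change -0.20, SE 0.06), and among 7 markers of the oligodendrocyte lineage Mog (-0.49, SE 0.10), Olig1 (-0.43, SE 0.10) and Olig2 (-0.45, SE 0.15) were lower. The summed level of the oligodendrocyte lineage markers was 113 to 157 CPM in control and 94.8 to 123 CPM in hypoxia, so these ranges overlapped, and its part in the falls of Snhg14, Snhg11 and Snhg20 was not tested.

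The authors' deposited table of genes that pass their own test lists 5 of the 10 host genes, among 2099 higher and 1693 lower genes. In the authors' deposited table, the log2 fold changes are -0.75 for Snhg14, -0.41 for Snhg11, -0.37 for Snhg20, 0.46 for Snhg12 and 0.38 for Snhg1. These are the same 5 genes that passed here, and in the same directions.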

How the data were processed

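Per the labels, poly(A) RNA libraries (TruSeq RNA v2) of 6 control and 5 hypoxia samples were sequenced as 50 bp single reads. The submitters' processing notes name FastQC 0.11.5, STAR 2.5.2b, featureCounts from Subread 1.5.1, DESeq2 and the mm10 build; no source used here gives the annotation release, the strand setting or the handling of multiply mapped reads. The deposited files hold raw counts per gene, 16619493 to 31917157 per library. A table by the authors gives log2 fold changes and adjusted p-values of the genes that passed, with a normalized signal per library deposited by the authors that was not used.

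Ensembl IDs were named with GENCODE M21 (GRCm38), which matched 48349 of 48709 rows. Counts were tested with edgeR 4.0.16 in R 4.3.3 (filterByExpr, TMM scaling, quasi-likelihood F test, 2-sided, Benjamini-Hochberg over 16235 genes, threshold 0.05), tested first on simulated data. CPM are counts per 1000000 of TMM-scaled library size, SDs are over libraries, and intervals are 95%. Alternatives were DESeq2 1.42.0, limma-voom 3.58.1, other scaling, filters and spread estimates, a replicate block, and leaving out each library. No 2 libraries held identical counts.

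The genes named are all 10 hosts with annotated neighbours, from each list the 3 called genes with the smallest p or the most abundant one where none was called (1 list gene is not reported here), and for 2 hosts the 3 genes most like them. Outside this rule, Epb41l4aos, Fbl, Larp1 and the rows along the Snhg14 locus were chosen after their values were seen. Ratios of hosts to neighbours were added after the fits were seen. The host genes and lists were chosen with earlier results of these data known. Lists and markers are reported by counts, with no set test.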

Additional observations from a re-analysis of the deposited data

Results flagged for a closer look

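Values of the 9 tested host genes and 20 named list genes were screened for 1 library apart from the rest of its group, and 5 of the 58 groups of libraries met Dixon's criterion; chance gives about 1 in 20 groups. Snhg1 in hypoxia replicate 1 had 21.89 CPM, above the next library at 20.19 CPM, and the call of Snhg1 held without that library. Ddit4 in hypoxia replicate 5 had 259.3 CPM against 222.3 CPM in the next library, and Upf2 in the same library had 39.93 CPM against 46.46 CPM in the next. Smg6 in hypoxia replicate 4 had 56.24 CPM, below the next at 58.22 CPM. Rpl4 in control replicate 6 had 399.6 CPM, below the next at 419.1 CPM. Snhg14 and Snhg11 also had their lowest values in hypoxia replicate 5, without meeting the criterion.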

How the results depend on the processing

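Over 19 alternatives each, Snhg1, Snhg12 and Snhg14 kept their direction and their call. Snhg11 kept its direction (-0.44 to -0.29 with each library left out) and lost its call with robust spread estimation (-0.39, edgeR adjusted p = 0.0505). Snhg20 kept its direction (-0.48 to -0.36 with each library left out) and lost its call with the replicate number as a block (-0.37, edgeR adjusted p = 0.0596). The numbers are not stated to pair libraries: same-numbered deviations correlated over 0.1 in 2 of 5 pairs, and 2 of 5 hypoxia libraries correlated best with their own number. The block changed no other call among the host genes. Snhg6, at 0 in effect, changed sign with DESeq2 (0.015), RLE size factors (0.011) and no filter (0.0093), and ran from -0.038 to 0.041 with each library left out. Gas5 changed sign without control replicate 1 and ran from -0.063 to 0.00077 with each library left out. Snhg8 (0.036 to 0.15) and Snhg17 (0.021 to 0.11) kept their sign and stayed uncalled with each library left out. The host genes called were 2 higher under every alternative, and 3 lower, or 2 with robust estimation or the block. Genes called over all tested ranged from 1300 to 2081 higher and 1500 to 2314 lower. Snhg3, with at most 6 counts in a library, and most snoRNA rows had too few counts to test.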
